A study of Mus musculus with 16 samples.

Results

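Expression of 10 genes of serine, glycine and one-carbon metabolism was followed in single cells from the mammary tumors of 2 genetically engineered mouse models. The genes were Phgdh, Psat1, Psph, Shmt1, Shmt2, Gcat, Mthfd2, Mthfd1l, Asns and Slc7a5. They are 10 of 19822 genes kept in the count tables, and all 10 were counted. Gcat was chosen by its measured level in the tumor cells of one model against the rest of these libraries, and the other genes because they belong to the same pathways. The levels of all 10 in the tumor comparison are therefore a description.

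Both models carry the genotype WapCre;Brca1F/F;Trp53F/F (WB1P), in which Cre expressed from the Wap promoter removes Brca1 and Trp53 in mammary epithelium. The second model (WB1P-Myc) has the genotype WapCre;Brca1F/F;Trp53F/F;Myc, where Myc is short for an added Cre-dependent Myc transgene, Col1a1invCAG-Myc-IRES-Luc. Mammary tumors of untreated females were dissociated, live single cells were sorted, and Drop-seq libraries were made, in which each barcoded droplet tags the 3′ ends of transcripts from 1 cell. The ages of the animals are not given in the sources used here. One cell suspension was processed per model, and 4 droplet fractions of it were sequenced. The fractions are technical repeats, so no p-value is given. The model cannot be told apart from the mice and tumors used or from the droplet session.

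After filtering, 1307 WB1P cells and 3491 WB1P-Myc cells remained in 8 libraries. Over all deposited barcodes, each WB1P library held 256985 to 1918672 unique molecular identifiers (UMIs, counted transcript molecules), and each WB1P-Myc library 3814562 to 4960334. WB1P fraction 1 stood apart, with 65 kept cells and a median of 887 UMIs per kept cell. Any 2 of these libraries shared few barcodes, 3 over 28 pairs. A second set of tables of the same fractions, sequenced on a MiSeq, held mostly other barcodes, with 59 shared over 8 pairs, and served as an alternative. The tumor compartment comprised 675 WB1P cells, which were epithelial-like, and 2190 WB1P-Myc cells. Of the latter, 1171 were epithelial-like and 1019 were in a cluster with Schwann cell markers. The 1019 cells were placed in the compartment by definition, and whether they derive from the tumor was not tested. Tumor cells below means the cells of this compartment. WB1P cells lay mainly in cluster 1, led by Csn3 and Lcn2, and WB1P-Myc cells in clusters 5 and 6, led by Gpx2 and by Lims2. In the tumor compartment the targeted gene Myc measured 67.1 CPM (the gene's UMIs as a share of all UMIs of the pooled cells, on a fixed scale common to all groups) in WB1P and 151 in WB1P-Myc. The 3′ end of the transgene transcript lies behind an IRES and luciferase, so this value need not report it, and counts at the 3′ ends of Brca1 and Trp53 need not report their deletions.

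Serine is made from the glycolytic intermediate 3-phosphoglycerate by successive actions of phosphoglycerate dehydrogenase, phosphoserine aminotransferase and phosphoserine phosphatase. Serine hydroxymethyltransferases split serine into glycine and a folate-bound one-carbon unit, which mitochondrial and cytosolic folate enzymes carry toward purine, thymidylate and methionine synthesis. The transcription factors ATF4 and MYC are known activators of several of these genes in proliferating cells.

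The promoters of Gcat and Asns are shown because they were the only members whose promoter window held the motif searched for MYC or for ATF4. RefSeq promoter windows of the mouse assembly GRCm38.p6 were found for 9 of the 10 genes, the exception being Slc7a5. The E-box CACGTG, the sequence bound by MYC and related factors and the same on both strands, occurred in 1 of these genes, Gcat, and in 7.15% of all 32851 promoter windows. The motif TGATGNAA, searched on both strands as the form of element bound by ATF4 and C/EBP factors, occurred in 1 gene, Asns, and in 3.97% of windows. Capitals mark the motif, at positions +3 to +8 from the Gcat start and -23 to -16 from the Asns start. A match is a description of letters and not of binding. The Gcat sequence covers chr15:79030774-79030881 on the plus strand and the Asns sequence chr6:7693210-7693309 on the minus strand.
Gcat: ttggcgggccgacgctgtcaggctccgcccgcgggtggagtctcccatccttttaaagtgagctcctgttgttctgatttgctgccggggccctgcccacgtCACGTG
Asns: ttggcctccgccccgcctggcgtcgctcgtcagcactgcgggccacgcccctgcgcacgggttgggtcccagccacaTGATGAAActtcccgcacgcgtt

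In tumor cells, 6 of the 10 genes were higher in WB1P-Myc than in WB1P and none was lower. Gcat differed most, at 17.8-fold, followed by Psat1, Mthfd1l, Shmt1, Shmt2 and Phgdh at 4.05-fold to 2.71-fold. Psph, Mthfd2 and Asns differed by less than 2-fold, and Slc7a5 was the member with the lower pooled level in WB1P-Myc. A gene was called when it had at least 50 UMIs, differed by at least 2-fold on pooled counts and had fractions that did not overlap between the models. Of 10597 genes tested, 14.4% were called higher and 9.32% lower, and since these cells led to the choice of genes, nothing is read from the share of members. The pooled levels rest on 24 to 125 UMIs per member in WB1P and 118 to 2829 in WB1P-Myc, and those of WB1P fraction 1 on at most 8. The median log2 ratio was 1.47 over the members and 0.10 over all tested genes.

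**Figure D1:**
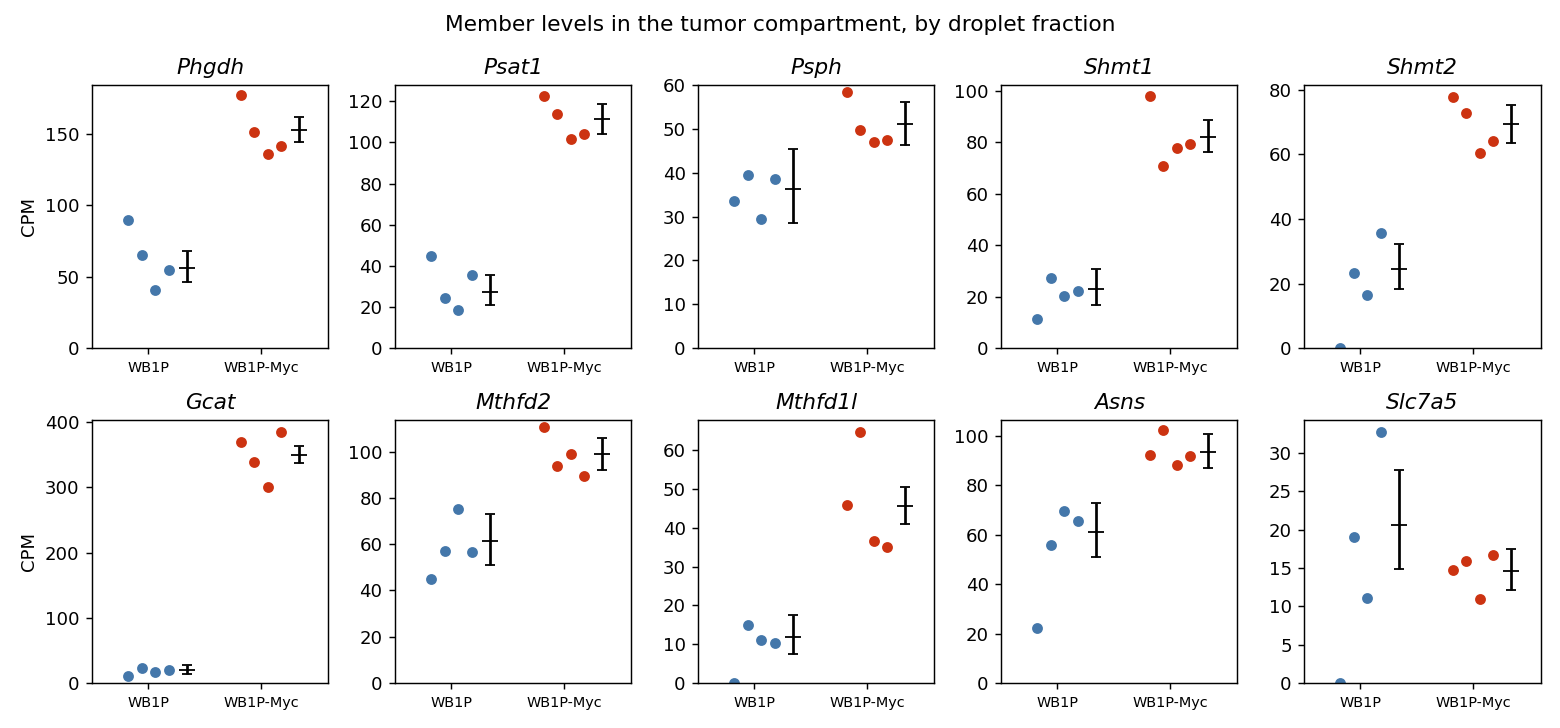
Level of each gene in the tumor compartment, in CPM (y axis), for WB1P (blue) and WB1P-Myc (red). Dots are the 4 droplet fractions and the black bar is the pooled level with its 95% interval of counting error. Gcat fractions lay between 11.2 and 23.2 in WB1P and between 301 and 385 in WB1P-Myc, whereas those of Slc7a5 overlapped.

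The serine synthesis genes differed between the models by unequal amounts. Phgdh (chr3:98313171-98339969) encodes phosphoglycerate dehydrogenase, the first enzyme of the route. Its WB1P fractions measured 89.6, 65.4, 40.4 and 55.0 CPM, and its WB1P-Myc fractions 177, 151, 136 and 142. The lowest WB1P-Myc fraction lay above the highest WB1P fraction. Pooled levels were 56.4 and 153, a log2 ratio of 1.44 with a 95% interval of 1.16 to 1.73. Intervals here and throughout cover counting error only. Psat1 (chr19:15905123-15925059), the aminotransferase of the second step, measured 44.8, 24.5, 18.4 and 35.7 in the WB1P fractions and 123, 114, 102 and 104 in the WB1P-Myc fractions. These groups were also separate, with pooled levels of 27.4 and 111 and a log2 ratio of 2.02 (1.63 to 2.43). Psph (chr5:129765558-129787443), which removes the phosphate in the final step, measured 33.6, 39.5, 29.4 and 38.6 in WB1P and 58.5, 49.8, 46.9 and 47.6 in WB1P-Myc. The fractions did not overlap, but the pooled levels of 36.3 and 51.1 differed by a log2 ratio of 0.49 (0.13 to 0.87), short of 2-fold.

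Enzymes that interconvert serine and glycine or release glycine followed the same direction. Shmt1 (chr11:60788897-60811265), the cytosolic serine hydroxymethyltransferase, measured 11.2, 27.3, 20.2 and 22.3 in the WB1P fractions and 98.0, 70.8, 77.7 and 79.4 in the WB1P-Myc fractions. All WB1P-Myc fractions were above all WB1P fractions, and the pooled log2 ratio was 1.84 (1.41 to 2.30). Shmt2 (chr10:127517123-127522444), its mitochondrial counterpart, had no UMI in WB1P fraction 1 and 23.2, 16.5 and 35.7 CPM in the others, against 77.6, 72.9, 60.5 and 64.3 in WB1P-Myc. Its pooled levels of 24.5 and 69.2 gave a log2 ratio of 1.50 (1.08 to 1.95). Gcat (chr15:79030874-79042531) encodes glycine C-acetyltransferase, the mitochondrial enzyme that splits 2-amino-3-ketobutyrate, a product of threonine, into glycine and acetyl-CoA. It measured 11.2, 23.2, 16.5 and 19.3 in the WB1P fractions and 370, 339, 301 and 385 in the WB1P-Myc fractions. The WB1P-Myc fractions formed a narrow band far above WB1P, with pooled levels of 19.6 and 350 and a log2 ratio of 4.16 (3.71 to 4.65). This ratio lay at percentile 98.9 of all tested genes. Tdh, which encodes threonine dehydrogenase and makes the substrate of Gcat, had 2 UMIs in the WB1P-Myc tumor compartment and 0 in WB1P, which allows up to 1.47 CPM.

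Both mitochondrial folate genes had separate fractions, but one passed 2-fold. Mthfd1l (chr10:3972892-4167081), the mitochondrial formate-releasing synthetase, had no UMI in WB1P fraction 1 and 15.0, 11.0 and 10.4 in the others. Its WB1P-Myc fractions measured 46.0, 64.7, 36.5 and 35.0, so that the groups did not overlap and the pooled log2 ratio was 1.96 (1.36 to 2.62). Mthfd2 (chr6:83305704-83326011), the mitochondrial methylene-tetrahydrofolate dehydrogenase and cyclohydrolase, measured 44.8, 57.2, 75.3 and 56.5 in WB1P and 111, 93.9, 99.1 and 89.4 in WB1P-Myc. Its pooled log2 ratio was 0.69 (0.42 to 0.97).

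Neither amino acid supply gene was called. Asns (chr6:7675165-7693209), asparagine synthetase, measured 22.4, 55.9, 69.8 and 65.4 in the WB1P fractions and 92.4, 103, 88.1 and 92.0 in the WB1P-Myc fractions. The groups were separate, and the pooled log2 ratio was 0.61 (0.34 to 0.90). Slc7a5 (chr8:121881146-121907686), the light chain of the large neutral amino acid transporter LAT1, had no UMI in WB1P fraction 1 and 19.1, 11.0 and 32.7 in the others. Its WB1P-Myc fractions of 14.7, 15.9, 10.9 and 16.7 lay within that range, and the log2 ratio was -0.50 (-1.02 to 0.05).

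**Figure D2:**
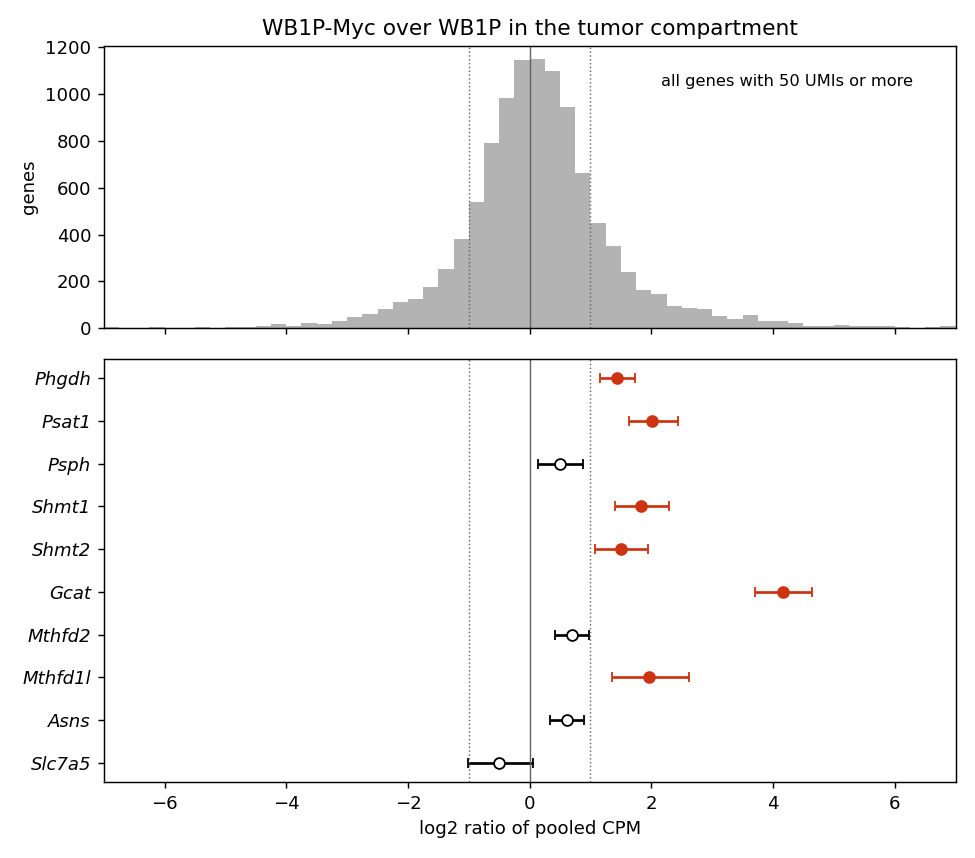
Log2 ratio of pooled CPM, WB1P-Myc over WB1P, in the tumor compartment (x axis). The upper panel counts all tested genes and the lower panel shows each member with its 95% interval of counting error, filled red where called, with dotted lines at 2-fold; Gcat lies at 4.16 and Slc7a5 is the one member below 0.

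Sums of Schwann cell and epithelial markers differed between the models, whereas those of macrophage and fibroblast markers had overlapping fractions. Over the tumor compartment, Schwann cell markers summed to 157 CPM in WB1P, with fractions from 134 to 280 and Foxd3 and Gfra3 at 0, and to 2211 in WB1P-Myc, with fractions from 1939 to 2682 and all 12 of 12 markers present. Epithelial markers summed to 8613 in WB1P, with 15 of 16 present and Krt5 at 0, and to 2242 in WB1P-Myc, with 16 of 16 present. Macrophage markers summed to 549 and 625, and fibroblast markers to 551 and 420. Within WB1P-Myc, epithelial markers summed to 4733 in epithelial-like and 280 in Schwann-like cells, beside 316 in macrophage-like and 219 in fibroblast-like cells. Of the WB1P-Myc epithelial-like cells, 1161 were in cluster 5, where 9 epithelial markers led but 0 were among the top genes. With the epithelial-like cells alone, a setting added after the data were seen, 6 genes were again higher and 0 lower. There Gcat had a log2 ratio of 4.98, Shmt1 of 2.09, Shmt2 of 1.88, Mthfd1l of 1.81, Psat1 of 1.68 and Phgdh of 1.40. Psph fell short at 0.26, Mthfd2 at 0.39 and Asns at 0.22, and Slc7a5 was at -0.05. Gcat, Phgdh, Psat1 and Shmt1 were called in all 22 alternatives run, although the Gcat log2 ratio fell to 3.17 with classes set cell by cell from markers. Shmt2 was not called in the miseq tables, and Mthfd1l neither there nor with cells thinned to 1000 UMIs, where its log2 ratio was 1.13 and that of Shmt2 was 2.28. In that thinned setting Mthfd2 was called instead, with a log2 ratio of 1.05. Shares of cells followed the levels: a Gcat UMI was found in 5.19% of WB1P tumor cells and 32.6% of WB1P-Myc tumor cells. With every cell thinned to 600 UMIs the shares were 1.19% (8 of 675 cells, exact binomial 95% interval 0.513 to 2.32) and 13.1% (286 of 2189, 11.7 to 14.5), against 0.531% and 1.43% of macrophage-like cells.

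Within the WB1P-Myc tumor compartment Gcat was higher in the epithelial-like than in the Schwann-like cells, at 617 against 140 CPM. The epithelial-like level was uneven: subcluster 4 of a second clustering, with Epcam as its one leading epithelial marker, held 1768 of the 2829 Gcat UMIs, whereas subcluster 5, with 14 leading epithelial markers, was at 114 CPM, under the Schwann-like level. Shmt2 had the same order at 90.1 against 52.8, and so did Shmt1 at 98.0 against 69.9. Phgdh was nearly level at 148 and 156. Psat1 had the opposite order at 87.9 against 130, as did Asns at 71.3 against 111, Mthfd2 at 80.3 against 113 and Psph at 43.5 against 57.0. Mthfd1l measured 41.3 and 49.1, and Slc7a5 19.9 and 10.4. The pooled levels of both cell groups lay above that of WB1P tumor cells for 9 of the 10 genes, and Slc7a5, at 20.6 in WB1P, was the exception.

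The WB1P-Myc tumor cells were clustered again without the members and pathway genes, which gave 5 subclusters described by number and leading genes. Subcluster 1 (611 cells) was led by Mag and Mbp, subcluster 2 (416) by Apod and Fxyd5, subcluster 3 (611) by Lars2 and Gm23935, subcluster 4 (257) by Mfng and Kcnip3, and subcluster 5 (295) by Krt79 and Foxq1. Gcat itself stood among the leading genes of subcluster 4. Genes near Gcat on its chromosome, Mfng among them, were not left out of this clustering. Subcluster 3 was shallow, with a median of 1151 UMIs per cell, and had Col1a1, Col3a1 and Col1a2 as its leading cell type markers.

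Gcat spread most over the subclusters. It measured 1409 CPM in subcluster 4, 323 in subcluster 3, 190 in subcluster 1, 114 in subcluster 5 and 38.5 in subcluster 2, a range of 36.6-fold. Each of these levels was above the pooled WB1P level of 19.6. With 1 WB1P-Myc fraction left out and the remaining cells clustered again, the range was 15.9-fold without fraction 1 and 15.0-fold without fraction 3. It was 26.2-fold and 40.1-fold without fractions 2 and 4. Since the subclusters were made anew each time, the part of the libraries in these changes was not tested. Shmt1 ranged 5.56-fold, from 23.2 in subcluster 2 to 129 in subcluster 4, and its lowest value was close to the WB1P level of 23.0. Shmt2 ranged 3.04-fold, from 33.9 to 103, and Phgdh 2.61-fold, from 93.0 to 242, each lowest in subcluster 2 and highest in subcluster 4. Phgdh in subcluster 5, at 94.2, was not distinguishable from its lowest value. Psat1 was highest in subcluster 1 at 164 and lowest in subcluster 2 at 63.1. Slc7a5 ran from 9.97 in subcluster 1, on 30 UMIs, to 25.7 in subcluster 5, on 39 UMIs. Mthfd2, Psph, Asns and Mthfd1l ranged by less than 2-fold, and Asns and Mthfd1l had their highest values in subcluster 2, at 115 and 60.4, where Gcat, Shmt1, Shmt2, Phgdh and Psat1 were lowest. Asns in subcluster 1, at 110, was within the counting error of that value.

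**Figure D3:**
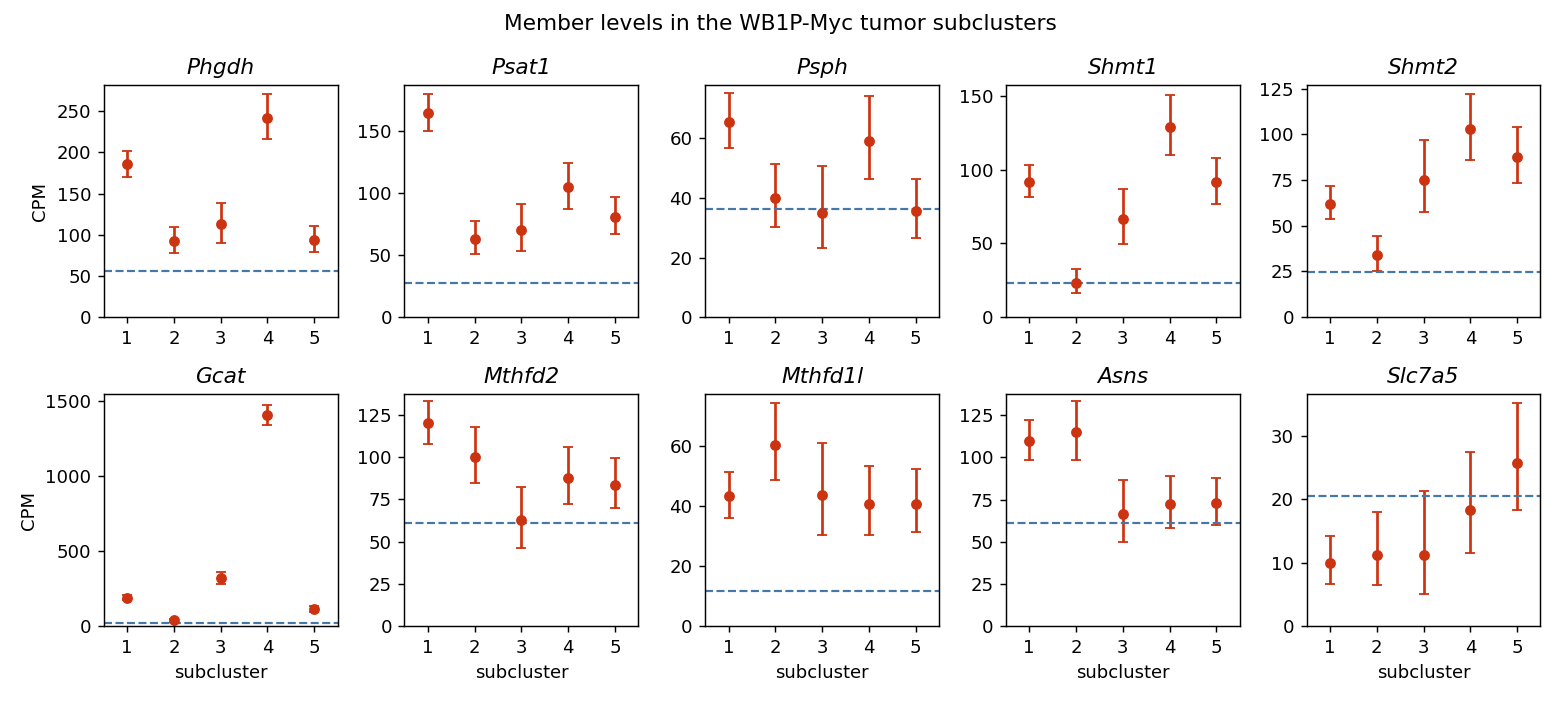
Level of each gene in CPM (y axis) in the 5 subclusters of WB1P-Myc tumor cells (x axis), with 95% intervals of counting error. The dashed blue line is the pooled WB1P tumor level; Gcat reaches 1409 in subcluster 4 and 38.5 in subcluster 2.

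A further WB1P-Myc cluster of 254 cells, led by Slc38a4, Dlk1 and Gap43, had no leading cell type and was kept outside the tumor compartment. Its Phgdh level of 195 CPM was above those of the epithelial-like and Schwann-like cells, and it had 103 for Gcat, 99.8 for Shmt2, 92.0 for Psat1, 87.1 for Shmt1 and 23.9 for Mthfd1l. Its 9 Tdh UMIs, or 6.32 CPM, stood beside 2 in all 2190 WB1P-Myc tumor cells.

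Tumor cells had higher levels of most of these genes than macrophage-like or fibroblast-like cells of the same tumors. Macrophage-like cells were identified by 11 of 12 markers (the tables have no row under the symbol Adgre1), and fibroblast-like cells by 13 of 13. Here a call needed the same direction in every fraction with at least 20 cells on both sides. Against macrophage-like cells, 7 of the 7 members with at least 50 UMIs were higher in WB1P tumor cells, where 26.3% of all tested genes were, and 10 of 10 in WB1P-Myc, where 27.8% were. The remaining 3 WB1P members, Gcat, Mthfd1l and Slc7a5, had too few UMIs to be tested. Members with enough UMIs had them mostly from the tumor side, so nothing is read from these counts. In WB1P, Asns measured 61.3 in tumor cells and 6.04, on 4 UMIs, in macrophage-like cells. This was a ratio of 10.1-fold, with a log2 ratio of 3.34 (1.95 to 5.24). Phgdh had 2 UMIs in 377 WB1P macrophage-like cells, with a log2 ratio of 4.22 (2.34 to 7.28). Both UMIs were in fraction 4, and without it the log2 ratio was at least 3.00, against a floor of 3 counts. In WB1P-Myc, the tumor level of Gcat was 11.6-fold that of macrophage-like cells, that of Phgdh also 11.6-fold, that of Asns 6.07-fold and that of Mthfd1l, the smallest, 2.68-fold. The Gcat log2 ratio of 3.54 was 1.96 with classes set per cell from markers. With an estimate of free RNA subtracted, no macrophage-like Gcat level remained. The value was then 7.24 against a floor of 3 counts, which is not a measured ratio. Mthfd1l had the opposite order in WB1P, with 11.8 in tumor cells and 19.6 in macrophage-like cells, on 37 UMIs in all and an interval of the log2 ratio from -1.77 to 0.36. The WB1P count fell to 3 without WB1P fraction 2 or 3 and to 4 without fraction 4.

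Against fibroblast-like cells, 5 of the 6 members tested were higher in WB1P tumor cells, with 23.8% of all tested genes, and 8 of 10 in WB1P-Myc, with 25.1%. Gcat, Shmt1, Mthfd1l and Slc7a5 had too few WB1P UMIs to be tested, and the 5 called members again had their UMIs mostly from the tumor side, so nothing is read from the count. Shmt2 was the WB1P exception, at 24.5 in tumor cells and 27.5 in fibroblast-like cells. In WB1P-Myc, Mthfd2 was higher by 1.79-fold and Slc7a5 by 1.56-fold, both short of the call. Gcat was 15.3-fold and Shmt1 13.2-fold higher in WB1P-Myc tumor cells than in fibroblast-like cells, and Phgdh was 6.38-fold higher. The Gcat log2 ratio of 3.93 was 1.86 with classes set per cell, and that of Shmt1, 3.72, was 2.07 in the miseq tables. With free RNA subtracted, no fibroblast-like Gcat level remained. The Gcat value was then 6.81 against a floor of 3 counts, again not a measured ratio. The WB1P count was 3 without WB1P fraction 2.

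**Figure D4:**
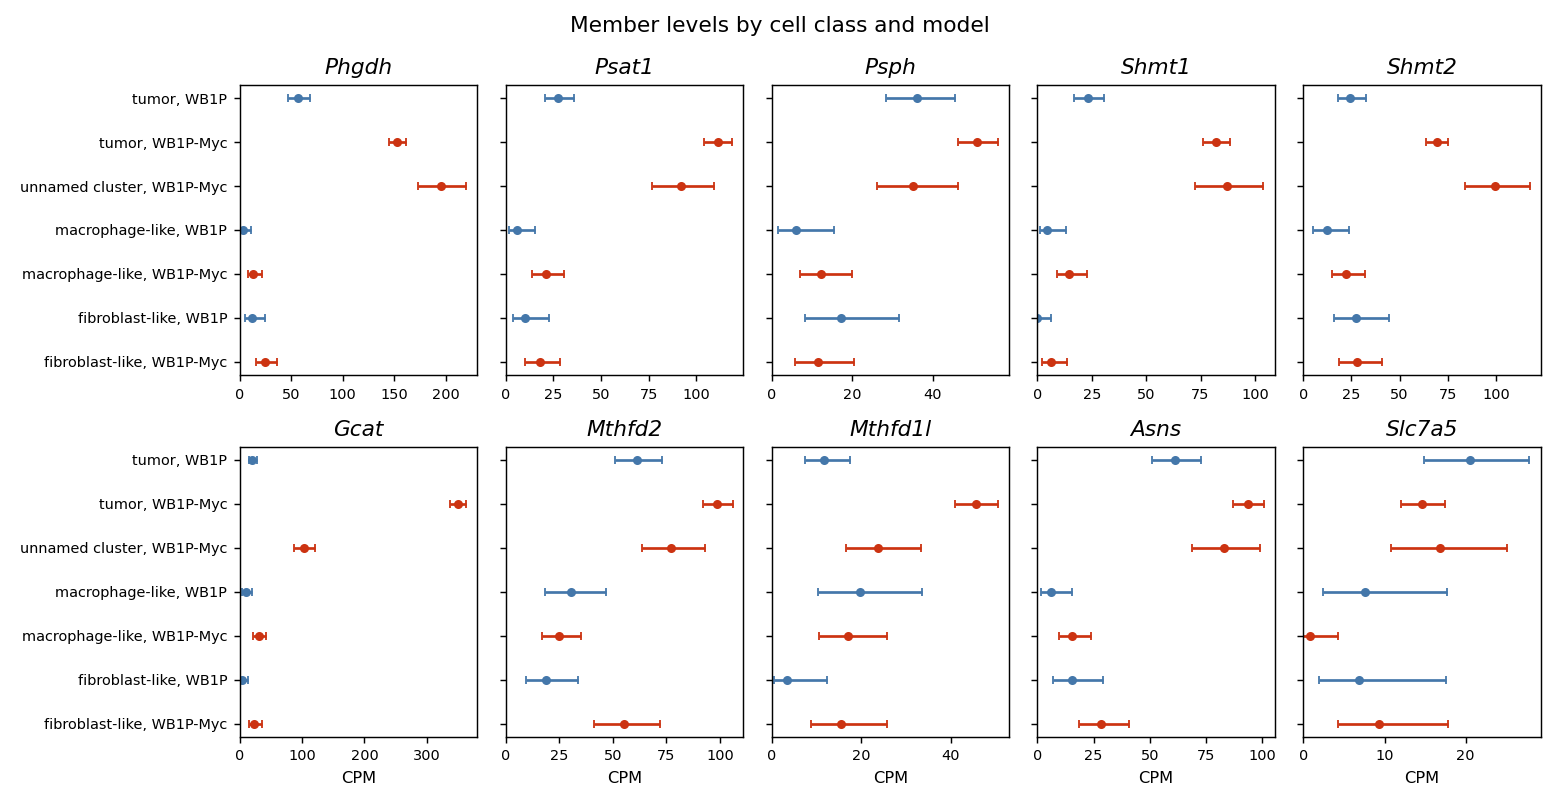
Level of each gene in CPM for tumor, macrophage-like and fibroblast-like cells of both models and for the unnamed WB1P-Myc cluster, with 95% intervals of counting error. Tumor cells of WB1P-Myc lie above both stromal classes for all 10 genes, whereas Mthfd1l in WB1P is 11.8 in tumor cells and 19.6 in macrophage-like cells.

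Between the models, macrophage-like and fibroblast-like cells had too few UMIs of most members. Mthfd2 was the single member with at least 50 UMIs in either class, and it was not called, so 0 of 1 member was higher in each, where 3.96% of genes in macrophage-like cells and 1.81% in fibroblast-like cells were. Mthfd2 measured 30.2 in WB1P and 24.7 in WB1P-Myc macrophage-like cells, and 18.9 and 55.2 in fibroblast-like cells. The fibroblast-like difference of 2.92-fold failed because the fractions overlapped, and it was called without WB1P fraction 2. Gcat measured 9.07 on 6 UMIs and 30.1 on 39 UMIs in macrophage-like cells, with a log2 ratio of 1.73 (0.48 to 3.26). RNA freed from lysed tumor cells gives UMIs in other droplets. Its size was estimated from the epithelial and Schwann cell markers with at least 50 UMIs in tumor cells. Their median level in macrophage-like cells was 4.76% of that in tumor cells in WB1P (17 markers) and 10.2% in WB1P-Myc (25 markers). These markers are not all specific to tumor cells. Schwann cell markers summed to 157 CPM in WB1P tumor cells and 113 in WB1P fibroblast-like cells. The WB1P-Myc macrophage-like levels of Gcat, 8.61% of the tumor level, and of Phgdh, 8.59%, were under the 10.2%. Psat1 at 18.8% and Psph at 24.2% of their tumor levels were above it. Shmt1 stood at 17.9% on 19 UMIs and Asns at 16.5% on 20 UMIs, and the intervals of their levels, from 8.84 and from 9.44 CPM, began close to it. In WB1P macrophage-like cells Gcat stood at 46.3% of its low tumor level, on 6 UMIs, beside 4.76%. In WB1P-Myc fibroblast-like cells Gcat was at 6.55% beside 8.95% for the markers. Shmt2 at 32.4% and 40.6%, Mthfd2 at 25.0% and 55.8% and Mthfd1l at 37.3% and 34.2% in macrophage-like and fibroblast-like cells were above the marker values. The part of free RNA in these levels was not tested.

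Cycling tumor cells were set apart as those with at least 2 UMIs of 24 cell cycle genes after thinning to 1000 UMIs. Top2a of that list measured 710 CPM in WB1P-Myc and 205 in WB1P tumor cells. It was also among the genes most like Gcat over the clusters, with a Pearson r of 0.959. Its part in the shares of cycling cells and in the Gcat ratio was not tested. In WB1P 194 cells were cycling and 332 were not (36.9% cycling), and in WB1P-Myc 963 were and 998 were not (49.1%). In WB1P, 2 of 5 members tested were higher in cycling cells, beside 4.33% of all tested genes: Phgdh measured 76.7 against 36.5 and Psat1 41.6 against 17.4. In WB1P-Myc, 1 of 10 members was higher, beside 3.78% of genes. This was Gcat, at 526 in cycling cells and 151 in the others, a ratio of 3.48-fold. With classes set per cell from markers its log2 ratio fell from 1.80 to 0.95 and no member was called in WB1P-Myc. Both values exceeded the 27.3 and 14.8 of cycling and other WB1P cells. Shmt2 and Shmt1 had log2 ratios of 0.89 and 0.73 in WB1P-Myc, under the threshold, and Asns was at -0.29. Among the epithelial-like cells alone, 2 members were called in WB1P-Myc, Gcat with a log2 ratio of 1.08 and Mthfd2 with 1.09. The WB1P count was 1 without fraction 1, 2 or 4 and 0 without fraction 3.

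The genes around Gcat moved with it, a pattern that was looked for after the values had been seen. Of 42 tested genes within 1 Mb of the Gcat start, 28 were higher in WB1P-Myc tumor cells and 2 were lower. Of all tested genes, 14.4% were higher and 9.32% lower. The median log2 ratio of the 42 genes was 2.17, beside 0.21 for the 413 tested genes of chromosome 15 and 0.10 for all tested genes. The higher genes lay unevenly. They were 15 of 17 in the 1 Mb before Gcat, 11 of 11 in the 0.3 Mb after it and 2 of 14 from there to 1 Mb. Outside the window, 3 of 6 tested genes were higher from 2 to 1 Mb before Gcat, with a median log2 ratio of 1.72. From 1 to 2 Mb after it, 4 of 10 were, with a median of 1.21. H1f0, a linker histone gene 2.66 kb before Gcat, had a log2 ratio of 1.68, and Ankrd54, 22.2 kb after it, had 2.57. Eif3l, a translation initiation factor subunit, measured 101 in WB1P and 1114 in WB1P-Myc, and Polr2f, an RNA polymerase subunit, 226 and 1734. Mfng, a modifier of Notch receptors, had no UMI in WB1P tumor cells and 94.7 CPM in the tumor cells with the transgene. Set against a floor of 3 counts it was at least 64.4-fold higher. Sox10, a Schwann cell marker in the window, had a log2 ratio of 1.81, and the lower genes were Lgals1 at -1.12 and Pdgfb at -1.17.

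**Figure D5:**
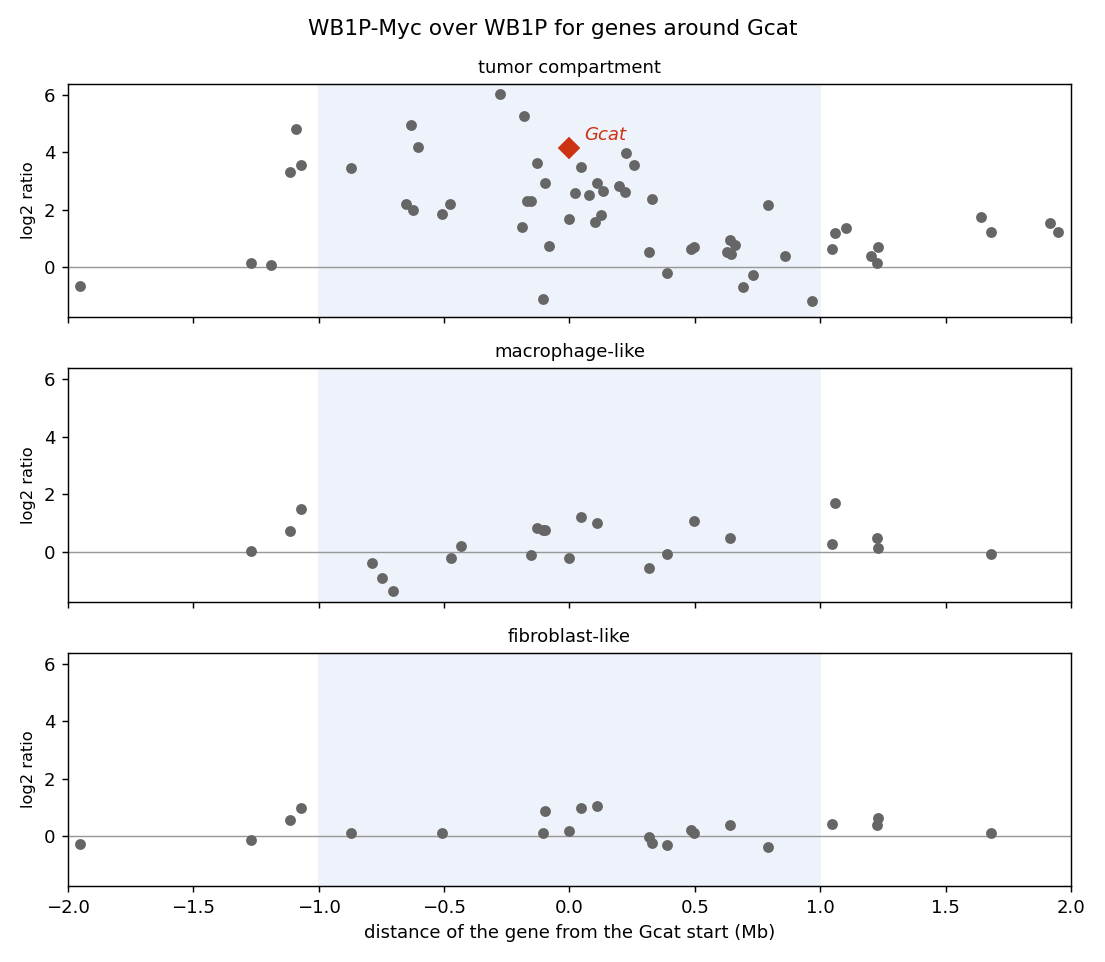
Log2 ratio of WB1P-Myc over WB1P (y axis) for genes around Gcat against the distance of their start from the Gcat start (x axis), in tumor, macrophage-like and fibroblast-like cells. The shaded area lies within 1 Mb. In tumor cells 28 of the 42 tested genes there were higher, in macrophage-like cells 2 of 16 and in fibroblast-like cells 1 of 14. Over all tested genes the shares were 14.4%, 3.96% and 1.81%.

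The same window was read in other cells. In macrophage-like cells 2 of 16 tested genes, Eif3l and Ddx17, were higher in WB1P-Myc, beside 3.96% of all tested genes, with a median log2 ratio of 0.05. In fibroblast-like cells 1 of 14 was, Polr2f, beside 1.81%, with a median of 0.11. Fewer genes of the window had enough UMIs there than in tumor cells. Each group of cells was then set against WB1P tumor cells over the 42 genes, counting pooled ratios over 2-fold, which are not calls. The subclusters among these groups were made with genes of this window left in, so their counts are descriptions. Of all tested genes, 14.4% to 21.5% were over 2-fold in these groups. In subclusters 1 to 4 between 25 and 28 of the 42 genes were, with median log2 ratios of 2.28, 1.28, 1.83 and 2.33. In subcluster 5 there were 17, with a median of 0.73, and in the unnamed cluster 12, with a median of 0.56. Fibroblast-like cells had 13 in each model, with medians of 0.02 in WB1P and 0.03 in WB1P-Myc, and macrophage-like cells had 7 and 6. In subcluster 2, where Gcat was lowest at 38.5 CPM, 25 of the 42 genes were over 2-fold, beside 17.0% of all tested genes. DNA copy number was not measured, and the part of the position in the Gcat ratio was not tested.

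Around the other members the counts within 1 Mb were smaller, read beside the 14.4% of all tested genes called higher and the 9.32% called lower. Of the tested neighbors, 2 of 7 were higher and 1 lower around Phgdh, 0 of 3 higher and 0 lower around Psat1, and 2 of 28 higher and 0 lower around Shmt1. Around Shmt2 4 of 37 were higher and 5 lower, and around Mthfd1l 1 of 5 was higher and 0 lower. Around the members that were not called, 0 of 19 were higher and 1 lower for Psph, 3 of 24 higher and 3 lower for Mthfd2, 1 of 5 higher and 0 lower for Asns, and 5 of 18 higher and 1 lower for Slc7a5. Median log2 ratios of the neighbors ran from -0.28 around Phgdh to 0.88 around Mthfd1l.

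The genes most like Gcat were found over 9 groups of model and cluster with at least 50 cells, among 7933 genes. They were Bclaf1 with a Pearson r of 0.964, Psmg3 with 0.963, Polr2f with 0.962, Psmd3 with 0.961 and Top2a with 0.959. Polr2f is the neighbor at chr15:79141325-79151774, and Top2a a cell cycle gene. Among the members, the pair most alike was Phgdh and Psph at 0.934 and the pair least alike Mthfd1l and Slc7a5 at 0.173. The groups share libraries and differ in depth, so these values are descriptions.

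Neighboring pathways were read in the same tumor comparison from lists chosen with earlier results known, and each count stands beside the 14.4% of all tested genes called higher. In glycine cleavage and catabolism, 5 of 6 tested genes were higher and 0 lower. The higher genes included Gamt, a creatine synthesis enzyme, at 3.43 and 55.9, and Gldc, the glycine decarboxylase. Gldc had no UMI in WB1P and 10.1 CPM in WB1P-Myc, at least 6.90-fold, and passed the minimum through WB1P-Myc alone. Pipox of this list, with 3 UMIs in WB1P-Myc and 28 in WB1P, was not tested. Gamt, and Folr2 of the next list, were also among the leading genes of subcluster 1, which was led by Mag and Mbp, and their part in the list counts was not tested. In the folate cycle and folate transport, 7 of 16 were higher and 1 lower. Folr2, a folate receptor, had 3 UMIs in WB1P and a log2 ratio of 5.84 (4.29 to 8.12), Slc19a1, the reduced folate carrier, was 4.87-fold higher, and Ggh, a folate hydrolase, had a log2 ratio of -1.24. De novo purine synthesis, which consumes one-carbon units, had 6 of 13 genes higher and 0 lower, with Pfas at 3.89-fold and Adsl at 2.89-fold. In the methionine cycle and transsulfuration 2 of 10 were higher, Cbs at least 5.22-fold and Srm 3.78-fold. Cbs had 62 UMIs in WB1P-Myc and 0 in WB1P, and so passed the minimum through WB1P-Myc alone. Without WB1P-Myc fraction 1 the counts were 3 for glycine cleavage and 1 for the methionine cycle, and the latter was also 1 without fraction 2 or 4. In the miseq tables the counts were 2 for glycine cleavage, 2 for folate and 1 for methionine, and with cells thinned to 1000 UMIs 2, 4 and 1. In epithelial-like cells alone they were 3 for glycine cleavage and 1 for methionine.

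Among amino acid transporters 5 of 8 tested genes were higher and 1 lower. Slc6a9, a glycine transporter, was 4.43-fold and Slc7a1, an arginine and lysine transporter, 3.46-fold higher. Slc3a2, the heavy chain that pairs with Slc7a5, was the lower gene, at 225 in WB1P and 102 in WB1P-Myc. Of the genes of ATF4 and the amino acid response, 0 of 17 were called higher and 2 lower, Ppp1r15a at a log2 ratio of -1.61 and Trib3 at -1.26, beside 9.32% of all tested genes called lower. The list median was -0.59, and uncalled genes lay on both sides of 0, from Cebpb at -3.06 to Stc2 at 2.49. One gene of that list was called higher without WB1P fraction 1 or 3. Of the cytosolic aminoacyl-tRNA synthetases 3 of 18 were higher, near the 14.4% of all tested genes, Kars at 2.51-fold and Yars at 2.34-fold among them, and of the cell cycle genes 2 of 24 were, under that share, Top2a at 3.46-fold and Cdc6 at 3.35-fold. The transporter count was 3 without WB1P-Myc fraction 1, 3 in the miseq tables and 2 with thinned cells. In epithelial-like cells alone 5 synthetases and 4 cell cycle genes were higher, and with TMM scaling 5 synthetases. One ATF4 list gene was also called higher with TMM scaling, with DESeq2 size factors and with classes set per cell. List medians of the log2 ratio were 1.82 for glycine cleavage, 0.63 for folate, 0.75 for methionine, 0.88 for purines, 1.27 for transporters, 0.61 for tRNA synthetases and 0.23 for the cell cycle, beside 0.10 for all tested genes.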

How the data were processed

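The authors deposited whole-number UMI counts per gene symbol and cell barcode, one table of 1000 barcodes per library and sequencing run, made from Drop-seq reads with dropseq-tools. The build mm10 and Scanpy are named in the submitters' processing notes; the aligner, the gene annotation and whether counting used strand are not given in the sources used here. The merged table was not used. A figure legend gives 2 mice per model; whether they were pooled is not given. The members and gene lists were chosen with earlier results of these data known.

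From the hiseq tables, barcodes with 450 to 4000 genes and under 20% mitochondrial UMIs were kept, with genes found in at least 3 cells (load minimum 200 genes). The upper gene limit was the only guard against doublets. Depth was 256985 to 4960334 UMIs per library over all deposited barcodes, with medians of 1724 (WB1P) and 2358 (WB1P-Myc) UMIs per kept cell. Cells were scaled to 10000, log transformed and clustered in Scanpy 1.11.5 (30 components, 20 neighbors, Leiden resolution 0.3) without the members, pathway genes and cell cycle genes. Clusters were named from marker lists, and the tumor compartment joined the epithelial-like and Schwann-like clusters. UMIs were pooled and given as CPM, with exact Poisson 95% intervals, exact binomial intervals for ratios and shares, and a floor of 3 counts. Named genes were all members, the 2 called genes with the largest ratio of each list and the 5 genes most like Gcat. Levels are not compared between genes, since counts of 3′ ends also differ with priming. Reads of Phgdh may be split with the pseudogene Phgdh-ps1. Psph, Shmt1, Shmt2, Psat1 and Slc7a5 overlap genes on the opposite strand (Cct6a, Smcr8, Ndufa4l2, Gm3329 and Gm20388), and Mthfd2 and Mthfd1l overlap genes on their own strand (Gm43890 and Gm16074), so their counts are uncertain to that extent. Alternatives covered the miseq tables, cell and gene filters, clustering, classes, scaling (edgeR 4.0.16, DESeq2 1.42.0), the count minimum, thinning, and leaving out each fraction. The ratio script was tested on simulated counts. Sequences and coordinates are from RefSeq and GRCm38.p6.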

Additional observations from a re-analysis of the deposited data

Results flagged for a closer look

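There were 40 sets of 4 fractions (10 genes in the tumor, macrophage-like or fibroblast-like cells of a model, where all 4 fractions had enough cells). In 2 sets, 1 fraction lay far from the others. The rule flags about 1 in 20 sets of normally distributed values by chance, a rate that need not hold for low counts. A gene with UMIs in only 1 fraction is always flagged. Slc7a5 in WB1P-Myc macrophage-like cells measured 3.43 CPM in fraction 4, which is 1 UMI, and 0 in the other fractions. Asns in WB1P-Myc fibroblast-like cells measured 50.6 in fraction 1 and 19.7 to 22.8 in the others.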

How the results depend on the processing

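The tumor comparison gave 4 to 6 members higher and 0 lower over the 22 alternatives, with Mthfd2 called in place of Mthfd1l when cells were thinned to 1000 UMIs. The counts of members higher in WB1P-Myc tumor cells, 10 over macrophage-like and 8 over fibroblast-like cells, were not among those that moved. Other counts of members called higher were small and moved in some alternatives. In the miseq tables they were 0 for WB1P tumor over macrophage-like and over fibroblast-like cells, 0 for cycling in WB1P and 2 in WB1P-Myc, and 18 of the genes around Gcat were called. With classes set per cell from markers they were 1 between models in macrophage-like and in fibroblast-like cells, 4 and 3 for WB1P tumor over macrophage-like and fibroblast-like cells, and 0 for cycling in both models. With no count minimum, 1 member was higher and 1 lower between models in macrophage-like cells, 1 was higher in fibroblast-like cells, and 8 were higher in WB1P tumor over fibroblast-like cells. With cells thinned to 1000 UMIs both WB1P class counts were 0, since fewer UMIs reached the minimum. Cycling in WB1P gave 0 with a mitochondrial limit of 10%, 1 at resolution 0.6, 1 with the mean of fractions, 0 from 1 UMI and 1 from 4 UMIs; in WB1P-Myc it gave 2 from 1 UMI and 2 with epithelial-like cells only. Leaving out 1 fraction gave 0 to 1 between models in fibroblast-like cells, 3 to 6 for WB1P tumor over macrophage-like, 3 to 5 over fibroblast-like cells and 0 to 1 for cycling in WB1P. Thinning to 600 UMIs changed the shares with a Gcat UMI to 1.19% and 13.1%. Unless stated, the cause was not tested. Of 1274 further values, 103 moved by more than their spread, and no called value changed direction.

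TMM scaling moved the median of the tumor comparison by 0.12 and DESeq2 size factors by 0.04 on the log2 scale; in WB1P tumor over macrophage-like cells the shifts were -0.12 and -0.26. With DESeq2 size factors, 54.8% of calls there and 52.9% over fibroblast-like cells were higher, against 66.4% and 65.2%, and between models in macrophage-like cells 48.2%, or 50.9% with TMM, against 69.0%. No test, paired or unpaired, was run, since 1 suspension per model gives no replicate. Within a model, calls between cell groups matched the groups by fraction. Between models, fraction numbers only name fractions and were not matched.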
